A study of Mus musculus with 9 samples.

Results

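The genes described here make up the MHC class I presentation pathway: H2-K1, H2-D1, B2m, Tap1, Tap2, Tapbp, Psmb8, Psmb9, Psmb10 and Calr. Every probe set whose annotated symbol is one of these 10 genes, alone or among several symbols, was taken, which gave 38 of the 25142 probe sets of both value tables. The table of 6 arrays holds 20 of them and the table of 3 arrays holds 18, all of which are also on the larger one. The arrays are Affymetrix arrays of RNA from day 10 dendritic cells, the cells that show peptides to T cells. They come from cells labelled CIITA-/-, named for CIITA, which activates transcription of MHC class II genes; from cells labelled IAb-/-, a name that points to H2-Ab1, which encodes the class II beta chain; and from wild-type B6 cells, with 3 arrays per group. Experiments 2 and 3 share the 6-array table and experiment 1 lies on the other array design, so each group has 1 array per experiment. The title of 1 CIITA-/- array gives no experiment number, and it was placed in experiment 2, the only number left in its group. The labels give no age, culture condition, treatment or design of the targeted alleles. They do not say whether a group's arrays stand for different mice or cultures, and the p-values below therefore describe array-to-array spread, part of which may be technical.

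The class I pathway shows fragments of the cell's own proteins, and in dendritic cells also of engulfed material, to CD8+ T cells. Psmb8, Psmb9 and Psmb10 encode the catalytic subunits that replace their constitutive counterparts in the immunoproteasome, which cuts proteins into peptides. Tap1 and Tap2 form the transporter that carries peptides into the endoplasmic reticulum, where tapasin (Tapbp) and calreticulin (Calr) hold the empty class I molecule near the transporter until a peptide binds. The finished molecule is a heavy chain, such as those encoded by H2-K1 and H2-D1, paired with beta-2-microglobulin (B2m). Most of these genes are known to be induced by interferon gamma, through IRF1 and through the activator NLRC5, a relative of CIITA. CIITA itself is known chiefly for the class II genes, and how far the class I genes change in cells labelled as lacking it is the question these arrays address.

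The promoter stretches of 5 members are shown: the heavy chain genes and B2m, which encode the chains of the finished molecule, and Tap1 and Psmb9, which are transcribed away from each other out of 1 stretch. No relation between these sequences and the values below was tested. The sequences are RefSeq's for GRCm38.p6, each read 5′ to 3′ on the strand named. For H2-K1, H2-D1 and B2m they are the 250 bases before the gene start (for H2-K1, before the first of its 2 listed starts), and the last is the whole stretch of 225 bases between the starts of Psmb9 and Tap1. Capitals mark matches, on either strand, to the kappa B letters GGGGATTCC or GGGANTTTC and to the interferon-stimulated response element letters GAAANNGAA or GAANNGAAA.
H2-K1 (chr17:34000348-34000597, minus strand): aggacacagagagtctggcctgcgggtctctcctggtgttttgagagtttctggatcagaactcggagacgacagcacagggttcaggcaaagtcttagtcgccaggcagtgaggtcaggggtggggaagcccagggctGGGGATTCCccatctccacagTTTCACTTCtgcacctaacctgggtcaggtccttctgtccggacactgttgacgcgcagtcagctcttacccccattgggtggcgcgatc
H2-D1 (chr17:35262844-35263093, plus strand): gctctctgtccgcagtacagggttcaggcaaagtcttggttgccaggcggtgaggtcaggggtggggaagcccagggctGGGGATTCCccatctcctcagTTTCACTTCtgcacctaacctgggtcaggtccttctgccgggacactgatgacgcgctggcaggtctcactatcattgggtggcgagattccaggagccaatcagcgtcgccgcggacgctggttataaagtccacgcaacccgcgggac
B2m (chr2:122147437-122147686, plus strand): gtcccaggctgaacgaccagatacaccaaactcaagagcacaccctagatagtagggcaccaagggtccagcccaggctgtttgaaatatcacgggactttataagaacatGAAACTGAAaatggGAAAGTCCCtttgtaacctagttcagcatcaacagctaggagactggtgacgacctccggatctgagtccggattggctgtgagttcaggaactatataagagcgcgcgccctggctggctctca
Psmb9 to Tap1 (chr17:34187331-34187555, plus strand): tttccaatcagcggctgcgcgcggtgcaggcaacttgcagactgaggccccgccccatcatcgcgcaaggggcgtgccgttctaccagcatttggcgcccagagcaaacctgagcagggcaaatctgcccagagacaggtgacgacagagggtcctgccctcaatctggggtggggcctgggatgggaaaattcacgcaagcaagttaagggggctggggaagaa
H2-K1, H2-D1 and B2m each held 1 kappa B match, a string found in 1.15% of the 32851 upstream windows of 250 bases in the RefSeq table, and 1 match to the interferon element, found in 12.5% of them. The letters were written by hand, and whether sites known in these genes guided the choice is not recorded. These shares therefore do not show enrichment. The capital stretches do not overlap. The Psmb9 to Tap1 stretch held neither string, which says only that these letters are not in this window. All 4 stretches held the letters CCAAT, on either strand, which 33.8% of windows hold, and TGACG, which 17.8% hold. Of the 10 genes, 9 had an entry in the promoter table. Among those not printed, the windows of Tapbp, Psmb8, Psmb10 and Calr held no kappa B match and no match to the interferon element. Psmb8 and Psmb10 also held neither CCAAT nor TGACG, and Tapbp and Calr held CCAAT but not TGACG. The strings are therefore not shared by all members. On chromosome 17 the RefSeq gene order is Psmb9, Tap1, Psmb8, Tap2, H2-Ob, H2-Ab1 and H2-Aa, so 4 members lie close to the gene named by the IAb-/- label. B2m is on chromosome 2 and Psmb10 and Calr are on chromosome 8.

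Values are intensities on a linear scale in arbitrary units, and probe sets near background can read below 0. A noise limit was set from the sizes of the negative values (their 95th percentile), at 1701 for the 6 arrays and 2203 for experiment 1. Tests used log2 of the 6-array table with values under its 30th percentile (123.5) raised to it, in one limma fit of the 3 groups (n = 2 per group, 9312 probe sets tested). The threshold for a call was an adjusted p of 0.05 (Benjamini-Hochberg). In bulk RNA, fewer cells of a type and less RNA per cell cannot be told apart. The dendritic cell label was borne out by its markers: 11 of 13, among them Itgax, Cd83, Ccr7, Cd86 and Cd74, lay above the noise limit on all 6 arrays, whereas all 4 T cell markers and all 3 NK cell markers with a probe set lay below it. Summed over each list, granulocyte markers read 7908 to 8144 on CIITA-/- arrays, 9066 to 10068 on IAb-/- arrays and 6225 to 6226 on B6 arrays, with Lcn2 the only one of 8 above the limit throughout. Macrophage markers, of which 3 of 8 (Cd14, Csf1r and Cd68) lay above the limit, read 16380 to 18604 on CIITA-/- arrays, 16560 to 20648 on IAb-/- arrays and 14594 to 18930 on B6 arrays. Fibroblast markers, with Col1a2 the only one of 5 above the limit, read 8012 to 8816 on CIITA-/- arrays, 6440 to 7730 on IAb-/- arrays and 6288 to 6429 on B6 arrays. B cell markers, with Pax5 the only one of 4 above it on every array, read 6271 to 8174 on CIITA-/- arrays, 6708 to 7152 on IAb-/- arrays and 6102 to 7421 on B6 arrays. Dendritic cell markers, a list that includes H2-Aa, read 445104 to 460713 on CIITA-/- arrays, 434718 to 579553 on IAb-/- arrays and 484695 to 497528 on B6 arrays. The granulocyte and fibroblast sums lay above B6 on every array of both knockout-labelled groups, for fibroblasts in IAb-/- narrowly (6440 against 6429). The dendritic cell sum lay below B6 on both CIITA-/- arrays, but it holds the class II gene H2-Aa. H2-Aa alone read 51407 and 53578 on B6 arrays. On CIITA-/- arrays it read -1520 and -2254, which count as 0 in the sum. The sum without H2-Aa is not given here, so the lower sum is not read as fewer dendritic cells. The part of these lists in the results below was not tested.

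Class II genes and Ciita were set beside the labels. H2-Aa, the class II alpha chain, read -1520 and -2254 on the CIITA-/- arrays of experiments 2 and 3, against 51407 and 53578 on B6 arrays, at least 30.9-fold lower (limma adjusted p = 0.0081; 0.0929 with the experiment as a block). On IAb-/- arrays it read 46977 and 29271. In experiment 1 H2-Aa read -1893 on the CIITA-/- array, and 65738 on the IAb-/- array against 33825 on the B6 array. H2-Ab1 read 615 and 112 on CIITA-/- arrays and 16070 and 9621 on IAb-/- arrays, against 17261 and 21348 on B6 arrays. Its experiment 1 values were 675 on the CIITA-/-, 30749 on the IAb-/- and 44048 on the B6 array. Ciita read 1601 and 1639 on CIITA-/- arrays, 398 and 644 on IAb-/- arrays and 623 and 933 on B6 arrays, all under the noise limit. The sources used here do not say whether these probe sets lie in the deleted parts, so neither Ciita nor H2-Ab1 checks its label, and CIITA-/- and IAb-/- are used here as the labels of the arrays.

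No class I member was called in any comparison. In CIITA-/- against B6 cells 0 of the 18 member probe sets tested passed, where 0.0966% of all tested probe sets did (9 of 9312). In IAb-/- against B6 cells 0 of 18 passed, against 0.0107% of all (1 of 9312), and in CIITA-/- against IAb-/- cells 0 of 18, against 0.0215% (2 of 9312). By limma 0 of the 18 had an unadjusted p under 0.05 in each of the 3 comparisons. The share of all tested probe sets under 0.05 is not given here, so this count is not read as a result about the members. No probe set above the noise limit on all 6 arrays, member or not, was among those called. The fitted log2 differences of the 15 members above the limit on all 6 arrays had a median of -0.04 in CIITA-/- and -0.02 in IAb-/- against B6, where all 3692 probe sets above the limit had medians of 0.01 and 0.01. The IAb-/- median was -0.23 without the IAb-/- array of experiment 2 and 0.06 without that of experiment 3. Their median size, regardless of sign, was 0.11 and 0.10, against 0.12 and 0.10 over all 3692. The 95% confidence intervals of these 15 reached from 0.35 (Tap1, 1.28-fold) to 0.66 (97540_f_at of H2-D1, 1.58-fold) log2 units to either side of the estimate. The limit farthest from 0 was a 1.73-fold change in CIITA-/- against B6, for Psmb9, and a 1.69-fold change in IAb-/- against B6, for 102689_at of Tapbp.

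**Figure D1:**
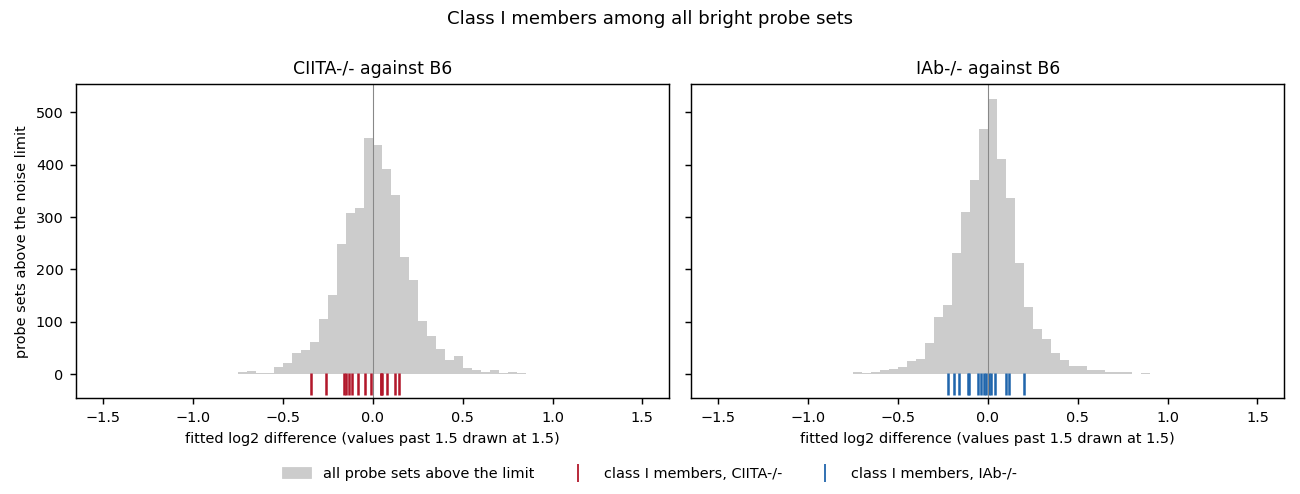
Histograms of the fitted log2 difference of the 3692 probe sets above the noise limit on all 6 arrays, for CIITA-/- against B6 (left) and IAb-/- against B6 (right); the coloured ticks under the bars are the 15 class I members among them. The ticks lie between -0.35 and 0.15 on the left and between -0.22 and 0.20 on the right, inside the body of the histogram in both panels.

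Of the 20 member probe sets of the 6-array table, 15 lay above the noise limit on every array and 4 below it on every array. The remaining one, 97174_r_at, which carries H2-K1 among 4 symbols, ran between -2378 and 2404 and had intervals too wide to read (log2 -1.97, SE 1.15, in CIITA-/- against B6). The 4 dim ones are 97700_at of H2-K1, 162278_r_at of Tap1, 95773_at, which carries H2-D1 among 5 symbols, and 93523_at, the only probe set of Calr. Calr read -303 and -233 on CIITA-/- arrays, -250 and -185 on IAb-/- arrays and -89 and -37 on B6 arrays of experiments 2 and 3. It was also below 0 on all 3 arrays of experiment 1, at -110 on the CIITA-/-, -279 on the IAb-/- and -458 on the B6 array. Calr was therefore not measured by this probe set, and it was below the filter of the fit, as was 97700_at. All 10 genes are thus covered by the arrays, but 9 by a probe set above noise.

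**Figure D2:**
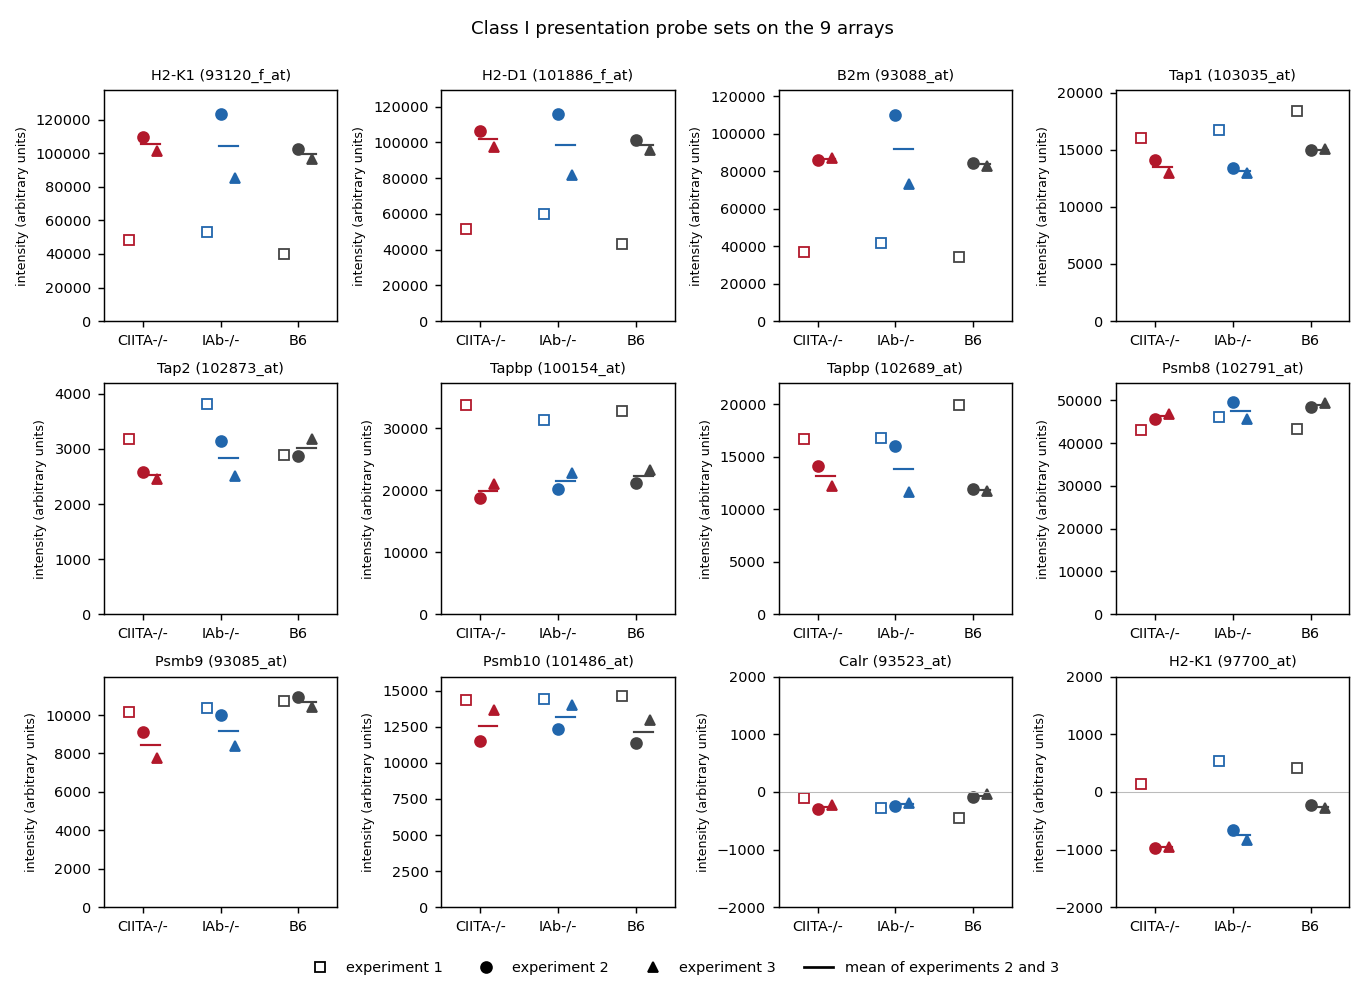
Intensity (arbitrary units) on each of the 9 arrays for 12 member probe sets, by group; the marker shape gives the experiment, experiment 1 (open squares) lies on another array design and cannot be set level against level with the others, and the short line is the mean of experiments 2 and 3. The heavy chain and B2m panels spread most in IAb-/- cells, the Tap1 and Psmb9 points of both knockout-labelled groups lie under B6 within each experiment, and the Calr and 97700_at points lie around or below 0.

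The heavy chains come first. The H2-K1 probe set 93120_f_at read 109518 and 101222 on CIITA-/- arrays, 123221 and 85207 on IAb-/- arrays and 102713 and 96683 on B6 arrays of experiments 2 and 3. In experiment 1 it read 48496 on the CIITA-/-, 53386 on the IAb-/- and 39733 on the B6 array. The groups overlapped in experiments 2 and 3, and B6 was the lowest in experiment 1. The log2 difference was 0.08 (SE 0.22, 95% interval -0.50 to 0.66, limma adjusted p = 0.98) in CIITA-/- against B6. In IAb-/- against B6 it was 0.04 (SE 0.22, -0.54 to 0.62, limma adjusted p = 1).

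The H2-D1 probe set 101886_f_at followed it closely, at 106392 and 97415 on CIITA-/- arrays, 115918 and 81640 on IAb-/- arrays and 101558 and 95966 on B6 arrays. In experiment 1 it read 51298, 59866 and 43116 on the CIITA-/-, IAb-/- and B6 arrays. The log2 ratio of the H2-K1 to the H2-D1 probe set on the same array stayed between 0.01 and 0.09 over the 6 arrays. Affymetrix marks with the ending _f_at a probe set that can also pick up related genes of a family, and all 5 heavy chain probe sets with a single symbol and a level above noise carry this ending. The class I heavy chain genes are close relatives, so these values are best read as heavy chain signal, and K and D cannot be told apart by them. The one H2-K1 probe set without the ending, 97700_at, read -969 and -949 on CIITA-/- arrays, -661 and -830 on IAb-/- arrays and -226 and -284 on B6 arrays, and gave no usable level.

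No other heavy chain probe set was called either. The H2-K1 probe set 97125_f_at averaged 36786 ± 1492 in CIITA-/-, 37116 ± 7901 in IAb-/- and 37034 ± 1533 in B6 cells (SD, n = 2 each), with log2 differences of -0.01 in both knockout-labelled groups against B6. The H2-D1 probe set 97540_f_at averaged 82310 ± 13357 in CIITA-/-, 86934 ± 23794 in IAb-/- and 84206 ± 3424 in B6 cells (SD, n = 2 each). Of the H2-D1 probe sets, 97541_f_at alone kept the groups apart: it read 22874 and 21168 on CIITA-/- arrays and 23951 and 19420 on IAb-/- arrays, against 24010 and 24139 on B6 arrays. Its log2 differences were -0.13 (SE 0.17) and -0.16 (SE 0.17), and in experiment 1 they had the other sign, 0.10 and 0.16. The probe set 102161_f_at, annotated to 10 class I genes with H2-K1 and H2-D1 among them, averaged 53706 ± 5244 in CIITA-/-, 54504 ± 13361 in IAb-/- and 57974 ± 1271 in B6 cells (SD, n = 2 each).

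B2m, the light chain shared by the classical and most nonclassical class I molecules, read 86283 and 87275 on CIITA-/- arrays, 110279 and 73146 on IAb-/- arrays and 84283 and 82986 on B6 arrays. In experiment 1 it read 36929 on the CIITA-/-, 41725 on the IAb-/- and 34234 on the B6 array. In CIITA-/- cells B2m lay above B6 in each experiment, by 0.11, 0.03 and 0.07 on the log2 scale in experiments 1, 2 and 3, with a fitted difference of 0.05 (SE 0.23, 95% interval -0.56 to 0.66, limma adjusted p = 0.99). Under spike-in scaling that difference was -0.09 and under quantile normalization -0.04, so its direction depended on the scaling. In IAb-/- cells the fitted difference was 0.10 (SE 0.23, -0.51 to 0.71, limma adjusted p = 1), and the 2 arrays lay on either side of all the others.

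That spread was shared by most heavy chain probe sets above noise and by control transcripts added to every sample. The H2-D1 probe set 97541_f_at did not share it in full. It read 23951 on the IAb-/- array of experiment 2, below 24010 and 24139 on the B6 arrays. For B2m and for 5 heavy chain probe sets, 93120_f_at, 97125_f_at, 101886_f_at, 97540_f_at and 102161_f_at, the IAb-/- array of experiment 2 was the highest of the 6 and the IAb-/- array of experiment 3 the lowest. The bacterial spike-in probe sets above noise (9 of them) differed in the median by 0.55 on the log2 scale in IAb-/- against B6 in experiment 2, and by -0.34 in experiment 3. The 5 single-symbol heavy chain probe sets, which include 97541_f_at and leave out 102161_f_at, had medians of 0.19 and -0.22 in the same experiments. B2m stood at 0.39 and -0.18. In experiment 1 the heavy chain median was 0.34 and B2m was 0.29, while the spike-ins stood at 0.04 (range -0.21 to 0.34). With the arrays scaled to the spike-ins, the IAb-/- against B6 difference was 0.01 for B2m and -0.06 for the H2-K1 probe set 93120_f_at. Without the IAb-/- array of experiment 2, the median difference of IAb-/- from B6 over all tested probe sets was 0. It was also 0 without the IAb-/- array of experiment 3. The deposited arrays share one trimmed mean and low values were raised to one floor. Both tend to hold such a median near 0, so nothing is concluded from it. The part of the spike-in difference in the spread of B2m and the heavy chains was not tested further.

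**Figure D3:**
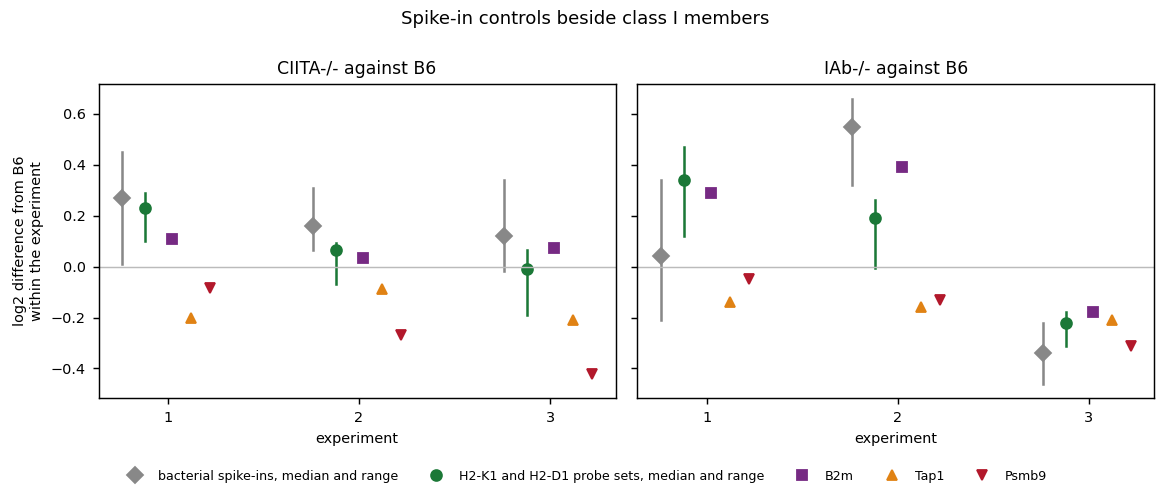
Log2 difference from the B6 array of the same experiment, for CIITA-/- (left) and IAb-/- (right), with the 9 bacterial spike-in probe sets (diamonds, median and range), the 5 single-symbol heavy chain probe sets (circles, median and range), B2m, Tap1 and Psmb9. In IAb-/- the heavy chains and B2m lie above 0 in experiments 1 and 2 and below it in experiment 3, while Tap1 and Psmb9 lie below 0 in all 6 positions.

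Of the transporter genes, Tap1 lay under B6 in both knockout-labelled groups in every experiment. Its probe set 103035_at read 14065 and 13000 on CIITA-/- arrays and 13369 and 12998 on IAb-/- arrays, against 14959 and 15070 on B6 arrays. In experiment 1 it read 16022 on the CIITA-/- and 16762 on the IAb-/- array, against 18437 on the B6 array. Within each array table all knockout-labelled values lay below the B6 values, but the distance was small. The log2 difference was -0.15 in CIITA-/- against B6 (SE 0.14, 95% interval -0.50 to 0.20, limma adjusted p = 0.93) and -0.19 in IAb-/- against B6 (SE 0.14, -0.54 to 0.17, limma adjusted p = 1). The other Tap1 probe set, 162278_r_at, ran between -172 and 422, below noise on all 6 arrays.

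Tap2 was dimmer and less steady. It read 2578 and 2462 on CIITA-/- arrays, 3142 and 2518 on IAb-/- arrays and 2870 and 3183 on B6 arrays, with log2 differences of -0.26 (SE 0.17, limma adjusted p = 0.93) and -0.10 (SE 0.17, limma adjusted p = 1). In experiment 1 the signs turned, at 3182 on the CIITA-/- and 3812 on the IAb-/- array against 2886 on the B6 array. Only in CIITA-/- cells of experiments 2 and 3 were both arrays below both B6 arrays.

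The tapasin probe sets disagreed. In CIITA-/- against B6 cells 100154_at gave a log2 difference of -0.16 (SE 0.16), while 102689_at gave 0.15 (SE 0.21) and 162104_f_at gave 0.13 (SE 0.14). The first read 18791 and 20978 on CIITA-/- arrays, against 21157 and 23281 on B6 arrays. The second read 14131 and 12216 on CIITA-/- arrays, against 11961 and 11759 on B6 arrays, and the third 16166 and 15577 against 14629 and 14470. In experiment 1 the first was 0.04 and the second -0.25, both with the opposite sign, and the third is not on that array design. In IAb-/- against B6 cells the 3 gave -0.05, 0.20 and less than 0.01. A direction for Tapbp cannot be given from these.

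Among the immunoproteasome subunits, Psmb9 had the largest fitted difference of any member above noise. It read 9094 and 7772 on CIITA-/- arrays and 9988 and 8387 on IAb-/- arrays, against 10952 and 10418 on B6 arrays. In experiment 1 it read 10146 and 10388 on the CIITA-/- and IAb-/- arrays, against 10737 on the B6 array. Every knockout-labelled array thus lay below the B6 array or arrays of its table. The log2 difference was -0.35 in CIITA-/- against B6 (SE 0.17, 95% interval -0.80 to 0.10, limma unadjusted p = 0.10 and adjusted p = 0.93) and -0.22 in IAb-/- against B6 (SE 0.17, -0.67 to 0.23, limma adjusted p = 1). In size 8.53% of the 3692 probe sets above noise differed at least as much in CIITA-/- against B6, and 18.6% in IAb-/- against B6. With all 9 arrays and the experiment as a block, the differences were -0.26 (limma adjusted p = 0.90) and -0.16 (limma adjusted p = 0.92).

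Psmb8 and Psmb10 differed less. Psmb8 read 45540 and 46884 on CIITA-/- arrays, 49590 and 45561 on IAb-/- arrays and 48324 and 49446 on B6 arrays, with log2 differences of -0.08 (SE 0.14) and -0.04 (SE 0.14) against B6. Its CIITA-/- arrays lay below B6 in all 3 experiments, by 0.01 in experiment 1. Psmb10 read 11502 and 13656 on CIITA-/- arrays, 12327 and 14015 on IAb-/- arrays and 11377 and 12932 on B6 arrays, with log2 differences of 0.05 (SE 0.17) and 0.12 (SE 0.17). For this gene the experiment moved the value more than the group did, and each array of experiment 3 was above the one of its group in experiment 2. The 3 constitutive subunits that the immunoproteasome subunits replace stood beside them without a call: Psmb5, Psmb6 and Psmb7 had log2 differences of -0.07, 0.01 and 0.01 in CIITA-/- and 0.00, 0.11 and -0.18 in IAb-/- against B6.

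**Figure D4:**
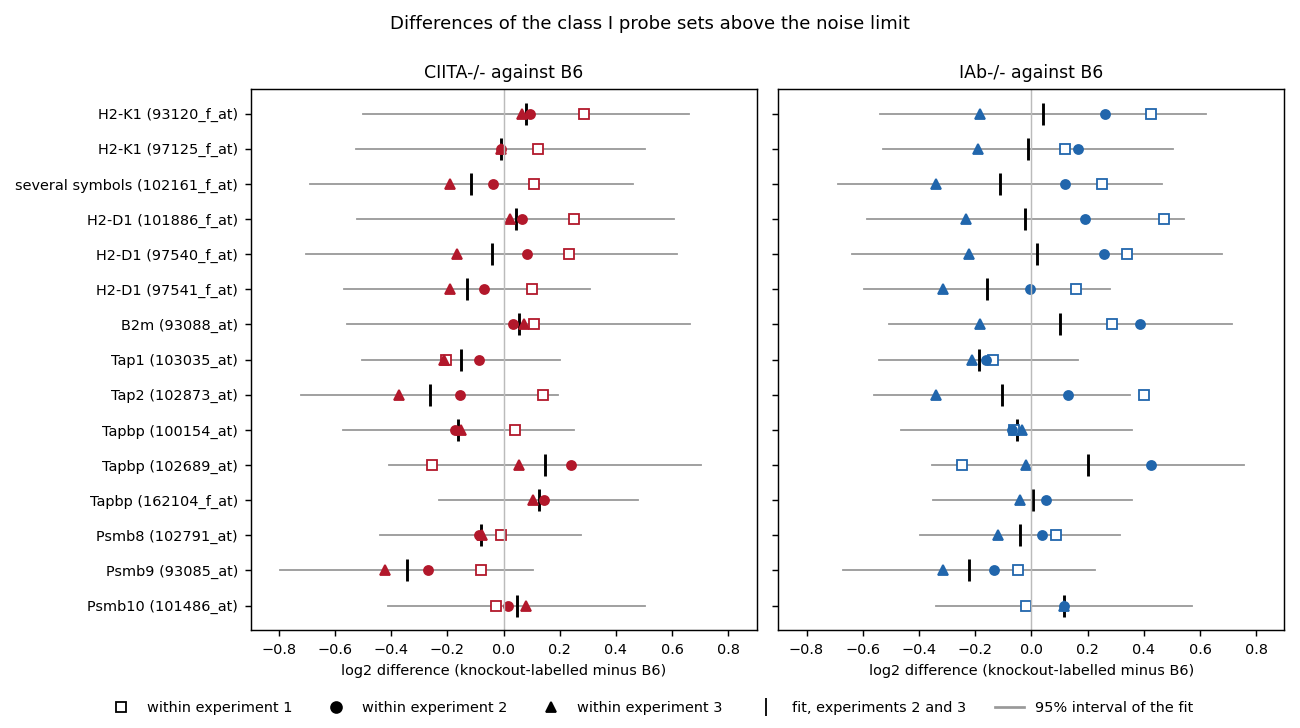
Log2 differences of the 15 member probe sets above the noise limit, for CIITA-/- against B6 (left) and IAb-/- against B6 (right): symbols give the difference within each experiment, the black tick the limma fit of experiments 2 and 3, and the grey line its 95% interval. All intervals cross 0; Tap1 and Psmb9 are the probe sets with every symbol left of 0 in both panels.

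Direction across arrays can be counted for the 15 members above noise. In CIITA-/- against B6 cells both arrays lay below both B6 arrays for 6 of the 15 (97541_f_at of H2-D1, Tap1, Tap2, 100154_at of Tapbp, Psmb8 and Psmb9), where this held for 18.2% of all 3692 probe sets. Both lay above for 3 (B2m and the other Tapbp probe sets), against 23.2% of all. In IAb-/- against B6 cells 3 of the 15 were below (97541_f_at, Tap1 and Psmb9), against 15.1%, and 0 above, against 17.1%. Several of these probe sets stand for the same gene, so the counts are not over independent genes. Both knockout-labelled groups are set against the same B6 arrays, so the 2 comparisons are not independent.

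Over all 3 experiments 14 members were above noise on all 9 arrays. In CIITA-/- against B6 cells 3 were lower in each experiment (Tap1, Psmb8 and Psmb9), against 13.2% of the 2876 such probe sets, and 3 were higher (B2m, 93120_f_at of H2-K1 and 101886_f_at of H2-D1), against 17.6%. The fitted differences of the higher ones turned negative under spike-in scaling (-0.09, -0.06 and -0.10) and quantile normalization (-0.04, -0.02 and -0.07), so their direction depended on the scaling. Tap1, Psmb8 and Psmb9 stayed lower under both. The spike-ins themselves lay above B6 in CIITA-/-, with medians of 0.27, 0.16 and 0.12 in experiments 1, 2 and 3. In IAb-/- against B6 cells 3 were lower (Tap1, Psmb9 and 100154_at of Tapbp), against 13.6%, and 0 higher, against 13.8%. Each of these counts lies within 2 probe sets of what the background share would give for 14. Tap1 and Psmb9, singled out here after their values were seen, are the genes of the shared promoter stretch printed above. They appear in both lists of lower members, which rest on the same B6 arrays.

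Set against each other, CIITA-/- and IAb-/- cells showed no called difference in class I genes. The median log2 difference of the 15 members was -0.04, against 0.00 over the 3692 probe sets. That median rests on IAb-/- arrays that lie on opposite sides: it was 0.18 without the IAb-/- array of experiment 2 and -0.22 without that of experiment 3. The largest fitted difference in size was 0.16, and the interval limit farthest from 0 was 1.65-fold. For 0 of the 15 both CIITA-/- arrays lay below both IAb-/- arrays, against 11.9% of all, and for 1, 162104_f_at of Tapbp, above, against 11.8%. Tap2 was lower in CIITA-/- in each experiment, by -0.26, -0.29 and -0.03 on the log2 scale (fitted -0.16, SE 0.17, limma adjusted p = 1). Psmb9 (fitted -0.12) and Psmb10 (fitted -0.07) were the other members with the same sign 3 times, which makes 3 of 14 lower, against 14.1% of the 2876, and 0 higher, against 12.1%.

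The wider pathway gave a like picture. Of 36 further genes of peptide trimming, transport, loading and class I regulation, 25 had a probe set of their own symbol, all 25 were tested, and 0 passed as higher and 0 as lower in each comparison. The list was written with earlier results of these data known. Of the 14 above noise on all 6 arrays, 8 were higher and 6 lower in CIITA-/- against B6 (median log2 0.01), and 9 were higher and 5 lower in IAb-/- against B6 (median 0.03). Psme1, a subunit of the interferon-induced proteasome activator, differed by -0.07 and -0.11, and Pdia3, the oxidoreductase of the peptide loading complex, by -0.13 and -0.12. Canx, the membrane-bound chaperone of new heavy chains, differed by 0.18 (SE 0.26) and 0.05, and Hspa5, the main chaperone of the endoplasmic reticulum, by -0.01 and 0.22. Nfyc, a subunit of the factor that binds CCAAT boxes, differed by 0.23 and 0.18. In experiment 1 Psme1 differed by 0.08 and 0.11 and Pdia3 by 0.135 and 0.02 in CIITA-/- and IAb-/-. Hspa5 differed there by -0.155 and -0.21 and Nfyc by -0.16 and -0.09. Canx has no value in experiment 1, and in CIITA-/- it differed by 0.549 in experiment 2 and -0.185 in experiment 3. Nlrc5, Psme2 and Erap1 had no probe set annotated to them alone and were not analysed here.

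Irf1, an interferon-induced transcription factor known in mice to be needed for full Tap1 and Psmb9 expression, had the largest difference in each comparison among the 14 above noise. It read 3211 and 4729 on CIITA-/- arrays and 3565 and 2944 on IAb-/- arrays, against 5299 and 5483 on B6 arrays. In experiment 1 it read 6585 on the CIITA-/- and 4027 on the IAb-/- array, against 4640 on the B6 array, so IAb-/- was below B6 in all 3 experiments and CIITA-/- in experiments 2 and 3 only. The log2 difference was -0.47 (SE 0.24, limma adjusted p = 0.93) in CIITA-/- and -0.73 (SE 0.24, limma unadjusted p = 0.031 and adjusted p = 1) in IAb-/- against B6. Whether Irf1 bears on Tap1 or Psmb9 in these cells was not tested. Blmh, a cytosolic peptidase, was the only other list member with an unadjusted p under 0.05 by limma against B6. The share of all tested probe sets under 0.05 is not given here. Blmh is named after its values were seen. It read 3936 and 2446 on CIITA-/- arrays and 1708 and 1580 on IAb-/- arrays, against 900 and 749 on B6 arrays (log2 1.92, limma adjusted p = 0.30, and 1.00, limma adjusted p = 0.91). Its B6 values lie under the noise limit, and in experiment 1 it read 708 on the CIITA-/-, 3092 on the IAb-/- and 880 on the B6 array.

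Over the 6 arrays the mean centred log2 level of 9 members, 1 probe set each, was -0.03 and -0.05 on the CIITA-/- arrays, 0.11 and -0.11 on the IAb-/- arrays and 0.03 and 0.06 on the B6 arrays (experiments 2 and 3). Among 3290 probe sets of other genes above noise, the closest to this pattern were Faf1, Usp3, Itm2c, Itm2b and Cd63, at root mean square distances of 0.01 to 0.03 log2 units, against a median of 0.15. With 6 arrays and so small a range, such closeness is a description only.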

How the data were processed

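The values the authors deposited are linear intensities, a single one for each probe set of an array. Per the files' values, the authors' arrays share one trimmed mean (2% trimmed from each end, 2500 to 2503) and between 21.0% and 26.4% of an array's values lie below 0; the sources used here do not give the algorithm. The scale was kept as deposited. Values were floored at the table's 30th percentile before log2, and those probe sets that exceeded this floor on 2 or more arrays entered the fit with lmFit and eBayes (limma 3.58.1, R 4.3.3) over the 3 groups, with 3 residual degrees of freedom. Benjamini-Hochberg adjustment ran over all 9312 tested probe sets; the script was tested on simulated data. Experiment 1 was compared only within its own table, floored at 93.23. The number of arrays limits the precision.

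Symbols come from the platform annotation; of the member probe sets, 3 in each table carry several symbols and were not attributed to 1 gene. Different probe sets of a gene were kept apart. The text gives every member, a written list of 36 pathway genes of which a fixed subset and the 3 largest differences are named, and 5 genes of like pattern. The members and lists were chosen with earlier results of these data known.

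The shared experiment numbers were checked as pairs: deviations of same-numbered arrays from their group means correlated at 0.0478 (B6 with CIITA-/-), 0.0787 (B6 with IAb-/-) and 0.215 (CIITA-/- with IAb-/-), so the block was kept as an alternative. The alternatives were other floors and filters, quantile and spike-in scaling, the experiment as a block in 6 or 9 arrays, a variance trend and leaving out each array.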

Additional observations from a re-analysis of the deposited data

How the results depend on the processing

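No member passed in any comparison under any of the alternatives run (783 recomputed differences, 0 past the threshold), though many of these settings cannot move the difference of a bright probe set. For Tap1 (103035_at) and Psmb9, singled out after their signs were seen, 8 of the 15 alternatives left the difference against B6 as it was, and under the 7 that moved it, it stayed negative in both groups. With the experiment as a replicate block over 6 arrays the members' differences cannot move and 0 passed. The number of members higher in CIITA-/- against B6, 8 of 18, became 5 under quantile normalization and 3 under spike-in scaling. In IAb-/- against B6, 8 of 18 became 3 under spike-in scaling and 12 of 17 with the replicate block over 9 arrays. In CIITA-/- against IAb-/-, 9 of 18 became 5 under spike-in scaling and 4 of 17 with that block. Spike-in scaling moved the median of all tested probe sets by itself, to -0.12 in CIITA-/- against B6 and -0.08 in IAb-/- against B6, with member medians of -0.17 and -0.11, and the share of all probe sets higher to 32.6% and 35.9%, against 52% and 51% as deposited. Leaving out 1 array gave 7 to 8, 3 to 12 and 5 to 15 members higher in the 3 comparisons; in IAb-/- against B6 it was 3 without the IAb-/- array of experiment 2, 12 without that of experiment 3 and 5 without the B6 array of experiment 3.

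Counts over all probe sets were less steady. In CIITA-/- against B6, 9 calls became 5 with the floor at the 40th percentile, 3 with it at the noise limit, 14 with no filter, 4 with the filter at the noise limit, 0 with the replicate block over 6 arrays, 4 with the block over 9 arrays, 3 with a variance trend and 0 to 1 without 1 array. In IAb-/- against B6, 1 call became 3 under quantile normalization, 2 under spike-in scaling, 5 with no filter, and 0 with either other floor, the filter at the noise limit, either block, a variance trend or without any 1 array. In CIITA-/- against IAb-/-, 2 became 1 with the floor at the 40th percentile, 4 with it or the filter at the noise limit, 7 under spike-in scaling or with no filter, 0 with the replicate block over 6 arrays and 0 to 1 without 1 array. The cause was not tested. With 2 arrays per group the 95% intervals of the 15 members above noise extend 1.28-fold to 1.58-fold to either side of each estimate, before any adjustment for the number of probe sets. Those of the dimmer members tested are wider.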
